A study of Mus musculus with 464 samples.

Results

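The SoxB genes encode transcription factors with a DNA-binding HMG box that mark dividing cells of the early neural tube. Sox1, Sox2, Sox3 and Sox21, all 4 members examined, were found by name among the 21973 genes of the deposited table. They were described in every single-cell column that had 2000 or more genes above 0 and a mitochondrial share of 20% or less, which left out 6 of the deposited columns. Sox1, Sox2 and Sox3 form the SoxB1 group, which activates transcription and keeps neural progenitors from differentiating, and Sox2 is also a factor of the pluripotent state. Sox21 belongs to the SoxB2 group, which acts mainly as a repressor and in chick neural tube favours the exit of progenitors toward neurons. As progenitors become neurons, SoxB1 genes are normally switched off while the SoxC genes Sox4 and Sox11, which activate neuronal genes, are switched on.

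The cells came from mouse R1 embryonic stem cells, an established line in wide use, which were kept in medium holding 1000 U/ml of the cytokine LIF and 15% serum replacement. Aggregation took place over 48 hours by the hanging drop method, and the resulting embryoid bodies then received retinoic acid for 4 days, with the labels naming a dose of 0.5 mM. A Fluidigm C1 was used to capture cells one by one, with SMART-Seq V4 for cDNA and Nextera XT for libraries. All columns carry this 1 condition, no untreated cells were analysed here, and no separate cultures are named, so the cells were 1 sample and no p-value is given. Levels are TPM, a share of transcripts corrected for gene length, and a gene counted as detected at 1 TPM or more. Intervals in brackets are exact Clopper-Pearson 95% intervals of a share and cover counting error only.

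Column names form 2 sets. The sets shared cells: 55 columns of the first set each had a near copy in the second, with a correlation of 0.95 to 0.99 over genes, whereas no other 2 columns passed 0.92. They were taken to be repeat measurements, and results are given both for all columns and for distinct cells, which leave out 1 column of each pair. The bracketed intervals are over columns and count each repeated cell 2 times, so they are somewhat too narrow. Sequencing depth is unknown, and the number of genes above 0, with a median of 6742.5 per column, was its only stand-in.

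Columns were split by markers that include no SoxB gene. An endoderm list of 10 genes (Gata4, Gata6, Sox17, Sox7, Foxa2, Dab2, Pth1r, Amn, Cubn and Thbd) counted as present with 3 detected, a progenitor list of 12 (Pax6, Hes5, Fabp7, Rfx4, Irx3, Irx5, Dbx1, Pax3, Pax7, Nkx6-1, Nkx6-2 and Olig2) with 3, and a neuron list of 12 (Nefl, Nefm, Mapt, Stmn2, Stmn3, Elavl3, Elavl4, Dcx, Snap25, Syt1, Gap43 and Ina) with 6. The endoderm state, with the endoderm list alone, held 56 columns. Its columns had a median of 7 of the 10 endoderm markers and a summed level of 252.5 to 1983 TPM for that list. The mixed state, with endoderm and neural lists together, held 93, of which 86 had the progenitor list and 48 the neuron list. The neuron state held 37.8% of columns (33.3 to 42.4), 80 in set 1 and 93 in set 2, without the endoderm list, and most of them also had the progenitor list. It is therefore a range that reaches from cells entering the neuronal programme to cells with all neuron markers. The progenitor state, with the progenitor list alone, held 28.8% of columns (24.7 to 33.2), 75 in set 1 and 57 in set 2, and 4 columns stayed unassigned. Median gene numbers were 5982 in the endoderm, 7349 in the mixed, 7020 in the neuron and 6247 in the progenitor state. Of the 55 repeat pairs, 39 had both columns in the same state, and in 7 the columns disagreed on the endoderm list. The state of a single column near a bound is therefore uncertain.

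The 4 genes lie apart in the genome, each within a region annotated in RefSeq on assembly GRCm38.p6, the build also called mm10. Sox2 spans 34649995 to 34652461 on chromosome 3, inside the long noncoding gene Sox2ot. Sox1 spans 12395519 to 12399555 on chromosome 8, inside the noncoding gene Sox1ot, and Sox21 spans 118233233 to 118237030 on chromosome 14, where its start overlaps the noncoding gene Gm4675. Sox3 spans 60891366 to 60893430 on the X chromosome. None of the 3 noncoding genes was used here, and reads of overlapping transcripts may have been assigned to the coding gene. The 250 bases upstream of the RefSeq start of 3 members are shown to set side by side the starts of members that were all lower in the endoderm state, with capitals marking a match to the Sox motif ACAAAG or ACAATG or the POU octamer ATGCAAAT, on either strand.
Sox1 (chr8:12395269-12395518, strand +): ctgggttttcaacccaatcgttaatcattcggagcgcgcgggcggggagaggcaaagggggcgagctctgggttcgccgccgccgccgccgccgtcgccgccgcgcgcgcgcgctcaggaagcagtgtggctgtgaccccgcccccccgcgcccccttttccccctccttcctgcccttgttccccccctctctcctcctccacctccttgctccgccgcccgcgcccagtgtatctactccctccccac
Sox2 (chr3:34649745-34649994, strand +): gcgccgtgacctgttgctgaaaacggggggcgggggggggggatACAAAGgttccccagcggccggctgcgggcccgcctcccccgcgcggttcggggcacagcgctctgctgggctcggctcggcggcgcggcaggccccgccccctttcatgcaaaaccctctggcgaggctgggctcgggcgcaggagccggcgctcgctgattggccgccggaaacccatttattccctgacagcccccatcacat
Sox21 (chr14:118237031-118237280, strand -): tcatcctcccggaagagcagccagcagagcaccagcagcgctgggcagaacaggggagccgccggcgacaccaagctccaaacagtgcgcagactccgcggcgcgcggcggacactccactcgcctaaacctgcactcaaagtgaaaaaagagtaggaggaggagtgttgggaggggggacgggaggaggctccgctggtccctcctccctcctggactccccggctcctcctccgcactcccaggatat
In these windows the Sox2 sequence held 1 match, ACAAAG, beginning at base -206 relative to the start, while the Sox1 and Sox21 windows held none of the 3 motifs. ACAAAG was present in 16.5% of the upstream windows of all 32851 promoters of the same length, ACAATG in 10.7% and the octamer in 1.60%. Just after its start, Sox1 held an octamer, the binding motif of POU factors that act with SoxB proteins, at base 19 of the transcript, and the octamer occurred in 1.74% of all promoters over the full 300 bases.
Sox1 octamer (chr8:12395529-12395552, strand +): agcgcgccATGCAAATcaccgccg
The windows were rich in G and C, with 71.2% for Sox1, 72% for Sox2 and 65.2% for Sox21, above 92.2%, 93.1% and 82.99% of all promoters. A match describes letters in these windows only and was not linked to binding.

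Over all kept columns, Sox2 was the SoxB gene with the highest level and widest detection, Sox1 had the lowest, and Sox21 and Sox3 lay between. Sox2 ranged from 0 to 306.2 TPM with a median of 19.1 TPM and was detected in 72.3% of columns (67.9 to 76.3) and in 71.96% of distinct cells. Sox21 ranged from 0 to 95.2 TPM with a median of 7.23 TPM and was detected in 69.7% of columns (65.2 to 73.8) and 69.5% of distinct cells. Sox3 ranged from 0 to 72.2 TPM with a median of 4.97 TPM and was detected in 61.8% of columns (57.2 to 66.3) and 60.3% of distinct cells. Sox1 ranged from 0 to 29.6 TPM with a median of 0 and was detected in 33.2% of columns (28.9 to 37.7) and 32.3% of distinct cells. Where it was detected, the median of Sox1 was 5.34 TPM, against 32.5 TPM for Sox2. The detected share of Sox1 moved with the threshold, as it was above 0 in 46.5% of columns and at 5 TPM or more in 17.03%.

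Within single columns the same order held for Sox2 and Sox1 but was loose for the middle pair. Among the columns with any SoxB gene, Sox2 was the highest of the 4 in 65.4% (60.4 to 70.2), Sox21 in 19.5%, Sox3 in 12.7% and Sox1 in 2.37%. Among distinct cells Sox2 was the highest in 65.3%. Sox21 exceeded Sox3 in 57.95% of the columns with either (52.6 to 63.2). In the progenitor state it did so in 54.4% of such columns (45.3 to 63.3), with means of 18.2 TPM for Sox21 and 16.7 TPM for Sox3. Over distinct progenitor-state cells the share was 56.4% (46.6 to 65.8), with means of 19.2 and 16.4 TPM. Which of the 2 is higher in that state was not tested.

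The 55 repeat pairs give the measurement error of a single column. The call of detected or not was the same in both columns for Sox3 in 53 pairs, for Sox2 in 52, for Sox21 in 52 and for Sox1 in 49. Calls that differed came from low values: the single detections had a median of 1.66 TPM for Sox1, 1.24 TPM for Sox2 and 1.06 TPM for Sox21, and Sox3 had one of 5.14 TPM whose partner was listed at 0. Between repeats of all states, the SD of log2(TPM + 1) was 0.31 for Sox1, 0.41 for Sox2, 0.47 for Sox3 and 0.28 for Sox21. In the 12 pairs with both columns in the progenitor state it was 0.34, 0.36, 0.29 and 0.33 in that order. Among the distinct progenitor-state cells the SD was 1.38, 1.62, 1.79 and 1.59 for Sox1, Sox2, Sox3 and Sox21, so the cells of 1 state differed by more than repeat columns did. The labels do not say at which step the repeats were split, so error made before that step is not included.

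**Figure D1:**
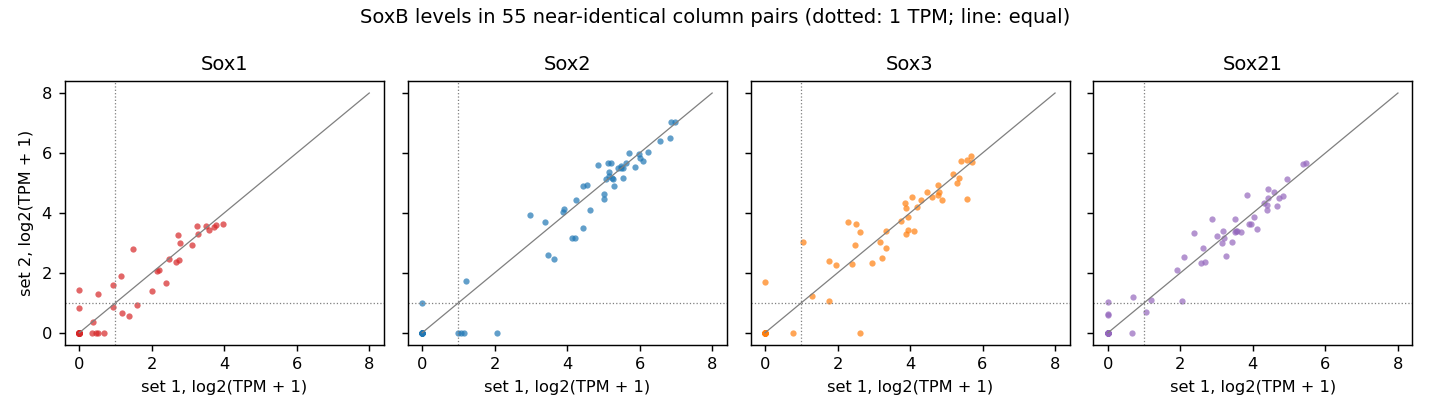
Each point is 1 of 55 near-identical column pairs, with log2(TPM + 1) in column set 1 on the x axis and in set 2 on the y axis for each SoxB gene. Points follow the line of equality at higher levels, and the pairs with differing calls, 3 for Sox2 and 6 for Sox1 among them, lie near the dotted lines at 1 TPM or on an axis.

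SoxB genes were close to absent from the endoderm-state columns and were detected in most progenitor-state columns, with the exception of Sox1. Sox2 was detected in 5 of 56 endoderm-state columns (8.93%, 2.96 to 19.6) against 93.9% of progenitor-state columns (88.4 to 97.3). In those 5 endoderm columns Sox2 stood at 27.8, 4.77, 2.83, 2.66 and 1.24 TPM, so 1 column stood well above the other 4. The endoderm-state columns ran from 0 to 27.8 TPM with a median of 0, and the progenitor-state columns from 0 to 306.2 TPM with a median of 43.7 TPM. The 2 ranges overlapped at the low end.

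The other members were set apart in the same way. Sox3 was detected in 5.36% of endoderm-state columns (1.12 to 14.9), at most at 11.3 TPM, against 81.8% of progenitor-state columns (74.2 to 87.99) with a median of 13.8 TPM. Sox21 was detected in 14.3% of endoderm-state columns (6.38 to 26.2), at most at 31.5 TPM, against 89.4% of progenitor-state columns (82.8 to 94.1) with a median of 15.04 TPM. Sox1 was detected in 0 of 56 endoderm-state columns, which allows a share of up to 5.36% by the limit of 3 counts and up to 6.38% by the exact interval, and its highest value there was 0.27 TPM, against 46.2% of progenitor-state columns (37.5 to 55.1) with a median of 0.58 TPM. Each member was thus found in a minority of endoderm-state columns at most, and Sox21 was the one seen there most often. Over distinct cells the shares were 10% for Sox2, 6% for Sox3, 16% for Sox21 and 0 of 50 for Sox1 in the endoderm state, against 94.8%, 81.7%, 90.4% and 46.1% in the progenitor state.

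As log2 folds of mean TPM, endoderm over progenitor state, Sox1 stood at -7.45, Sox2 at -5.92, Sox3 at -5.19 and Sox21 at -4.20. All 4 members were past a 2-fold difference in mean TPM, the threshold used throughout, in the lower direction, where 26.7% of the 10634 genes compared were also past it. Genes were compared when detected in at least 10% of the columns of the 2 states combined, and all 4 members passed that filter through the progenitor state. Over those of these genes with a mean above 0 in both states, the median log2 fold was -0.26. Among them the shares with a still lower fold were 1.012% for Sox1, 2.01% for Sox2, 2.51% for Sox3 and 3.78% for Sox21. Genes at 0 throughout the endoderm state, such as Pax7 and Nkx6-1, are not in these shares. The medians for all genes given below leave out genes at 0 in either state likewise. Rescaling each column to its broadly detected genes moved the median gene by 0.26 on the log2 scale and gave -7.05, -5.80, -5.03 and -3.99. Over distinct cells the folds were -7.30, -5.81, -5.0 and -4.15. Single columns weighed on the endoderm means: without the column where the gene was highest, a choice made after the values were seen, the endoderm mean was 0.28 instead of 0.77 TPM for Sox2 and 0.44 instead of 0.99 TPM for Sox21. The folds without that column were -7.91 for Sox1, -7.38 for Sox2, -6.00 for Sox3 and -5.39 for Sox21. The Sox1 value rests on traces below detection in the endoderm state, and as a difference of mean log2(TPM + 1) it was -1.24.

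**Figure D2:**
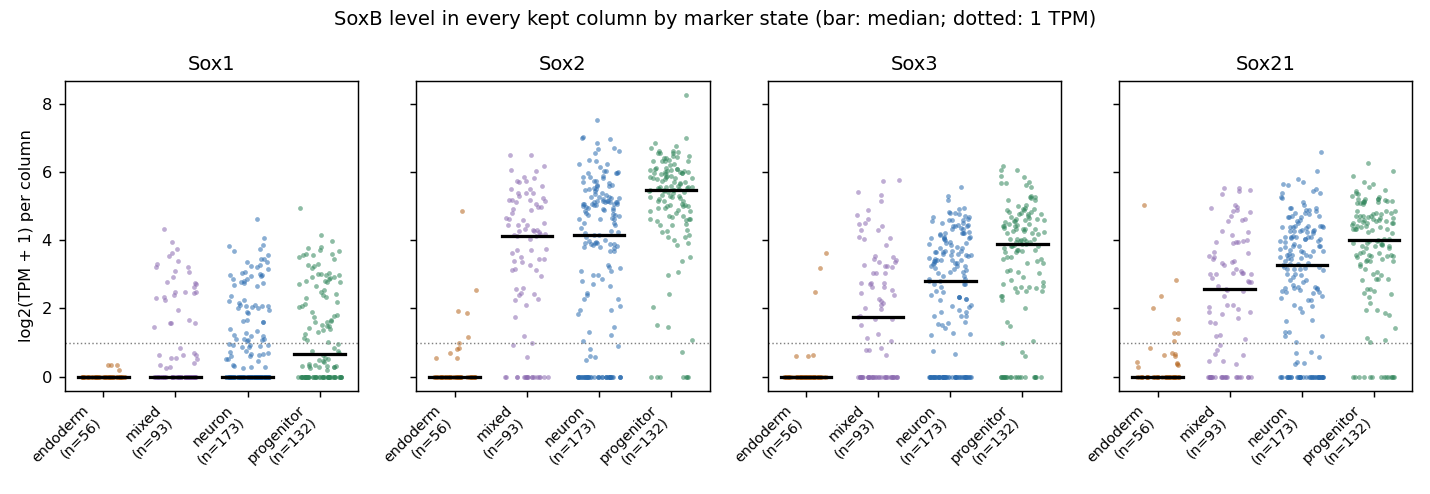
Each point is 1 kept column, with the SoxB level as log2(TPM + 1) on the y axis and the marker state on the x axis, and black bars mark medians. The 56 endoderm-state columns lie almost all at 0, while the progenitor-state median of Sox2 is 43.7 TPM and neuron-state Sox2 values spread from 0 to 183.3 TPM with a median of 16.8 TPM.

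Columns of the mixed state carried SoxB genes more often than endoderm-state columns did and at lower levels than progenitor-state columns. Sox2 was detected in 77.4% of mixed-state columns (67.6 to 85.4) and averaged 20.2 TPM, against 46.9 TPM in progenitor-state columns, which is a log2 fold of -1.21. Sox3 had a mean of 7.10 TPM in the mixed state against 16.7 TPM in the progenitor state, a log2 fold of -1.23. These 2 members were past 2-fold, in a comparison where 4.75% of 10959 genes were past it in the lower direction. Sox21 averaged 9.24 TPM in the mixed state against 18.2 TPM in the progenitor state, just short of 2-fold at a log2 fold of -0.98, and Sox1 averaged 2.14 against 2.94 TPM, at -0.46. Over distinct cells the folds were -1.23 for Sox2, -1.45 for Sox3, -0.96 for Sox21 and -0.56 for Sox1.

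Within the mixed state the members did not follow the number of endoderm markers alike. In the 60 columns with 6 to 10 endoderm markers Sox2 averaged 13.8 TPM with a detected share of 70% (56.8 to 81.2), against 31.9 TPM and 90.9% (75.7 to 98.1) in the 33 columns with 3 to 5. Sox3 averaged 4.54 TPM in the columns with more endoderm markers against 11.8 TPM in those with fewer, and over distinct cells 4.78 against 8.33 TPM. The intervals of the Sox2 shares overlap. Sox21 averaged 9.26 TPM in the columns with more and 9.21 TPM in those with fewer endoderm markers, and its detected shares of 76.7% (63.96 to 86.6) and 51.5% (33.5 to 69.2) had overlapping intervals. The summed level of the endoderm list ran from 6.37 to 2245 TPM in the mixed state with a median of 331.7 TPM, against 0 to 290.8 TPM with a median of 35.3 TPM in the progenitor state. Most of the progenitor-state sum was Pth1r, with a mean of 45.96 TPM, and no other marker of that list averaged over 0.60 TPM. Pth1r averaged 30.8 TPM in the neuron and 107.8 TPM in the mixed state, so it was not particular to columns with the endoderm list. Median gene numbers were 7955.5 in the columns with more and 6818 in those with fewer endoderm markers, and whether a column held more than 1 cell was not tested.

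Between the neuron and the progenitor state all 4 members had lower means in the neuron state, yet none was past 2-fold. Sox2 averaged 26.2 TPM in neuron-state columns against 46.9 TPM in progenitor-state columns, a log2 fold of -0.84, and was detected in 73.99% (66.8 to 80.4) against 93.9% (88.4 to 97.3). Sox3 averaged 8.56 against 16.7 TPM, a log2 fold of -0.96, and was detected in 68.2% (60.7 to 75.1) of neuron-state against 81.8% (74.2 to 87.99) of progenitor-state columns. Sox21 averaged 12.4 TPM in the neuron and 18.2 TPM in the progenitor state, with a log2 fold of -0.56, and Sox1 averaged 2.05 and 2.94 TPM, with a log2 fold of -0.52. In this comparison 2.55% of 10775 genes were past 2-fold in the lower direction and 9.8% in the higher. Sox3 sat at the threshold and passed it over distinct cells, at -1.02, where Sox2 was at -0.91, Sox21 at -0.66 and Sox1 at -0.60. With the neuron state held to at least 10 of the 12 markers, a bound chosen after the data were seen, Sox2 was at -1.45, Sox3 at -1.55, Sox21 at -0.79 and Sox1 at -0.55. That bound also moved columns with 6 to 9 neuron markers and the progenitor list into the progenitor state, so the reference of these 4 folds changed too.

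**Figure D3:**
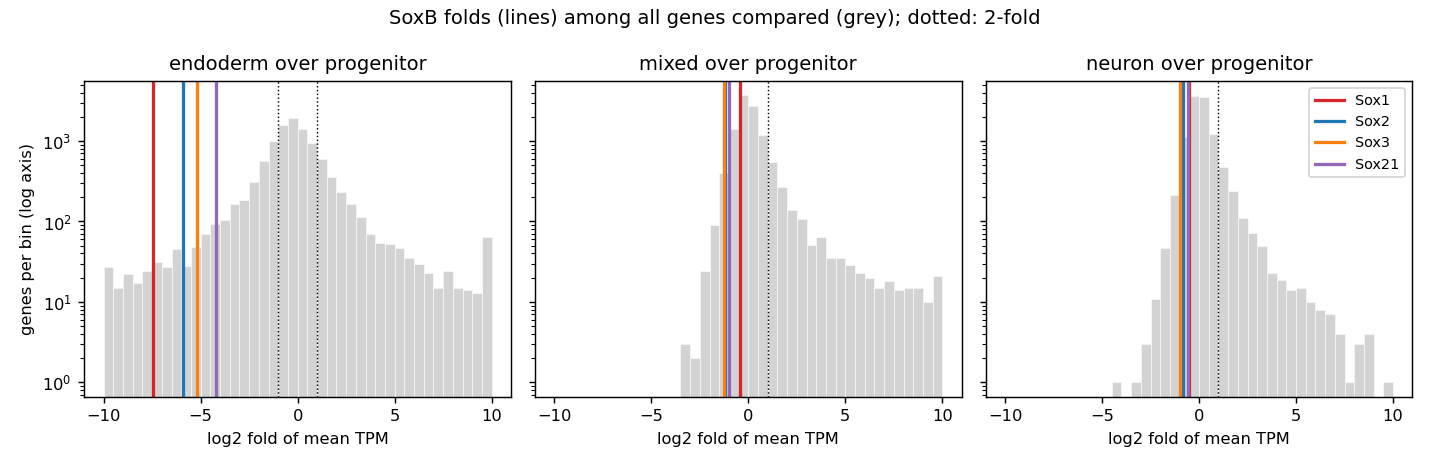
Grey bars count all genes compared by log2 fold of mean TPM over the progenitor state, with values beyond 10 in either direction drawn in the end bins, and coloured lines mark the SoxB genes. The members lie in the lower tail of the endoderm comparison, between -7.45 and -4.20, and within or near the dotted 2-fold bounds in the other comparisons.

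The number of neuron markers showed where the levels parted. Outside the endoderm and mixed states, the median of Sox2 was 46.1, 41.4, 43.5, 32.7 and 8.02 TPM in columns with 0 to 1, 2 to 3, 4 to 5, 6 to 8 and 9 to 12 neuron markers, with 13, 50, 73 and 68 columns in the first 4 steps and 65 with 9 to 11 plus 40 with all 12 markers in the last. Detection of Sox2 was 92.3%, 90%, 94.5%, 91.2% and 62.9% over the same steps. Columns with at most 5 neuron markers were progenitor-state or unassigned columns by definition, so their nearness to the progenitor level was set in advance. Sox2 was lowest in the last step. The interval of its detected share there, 52.9 to 72.1, lay below that of the columns with 4 to 5 markers, 86.6 to 98.5. Over distinct cells the same intervals were 52.8 to 72.4 and 84.3 to 98.2.

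Sox3 and Sox21 also had their lowest detection, or nearly so, in the columns with the most neuron markers, but Sox21 by less. Sox3 had medians of 14.9, 8.59, 13.9, 11.9 and 2.40 TPM over the 5 steps and was detected in 57.1% (47.1 to 66.8) of the last step. Sox21 had medians of 13.4, 13.4, 17.5, 11.4 and 6.65 TPM over the 5 steps and was detected in 69.5% (59.8 to 78.1) of the last step, against 91.8% (82.96 to 96.9) with 4 to 5 markers. Sox1 was detected in 38.5%, 38%, 50.7%, 42.6% and 30.5% over the steps, with overlapping intervals throughout. Over distinct cells the last step had shares of 63% for Sox2, 56% for Sox3, 69% for Sox21 and 31% for Sox1. Columns without any SoxB gene numbered 0, 2, 1, 2 and 18 over the steps. Median gene numbers were 5573, 6079, 6495, 6964.5 and 7079 over the steps, and their part in these differences was not tested.

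The 40 columns with all 12 neuron markers, a set singled out after the values were seen, carried Sox21 more often than Sox2. Sox21 was detected in 65% of them (48.3 to 79.4) with a median of 4.95 TPM, Sox2 in 47.5% (31.5 to 63.9) with a median of 0.8 TPM, Sox3 in 42.5% (27.04 to 59.1) and Sox1 in 20% (9.05 to 35.6). These intervals overlap for Sox21 and Sox2. The mean of Sox21 there was 11.2 TPM, with 1 column at 95.2 TPM, and that of Sox2 was 8.48 TPM. In the 65 columns with 9 to 11 markers Sox2 had a median of 17.5 TPM and Sox21 of 7.9 TPM, and both were detected in 72.3%.

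The SoxC genes had the opposite course. Sox4 had medians of 2.55, 10.4, 16.6, 24.8 and 36.6 TPM over the 5 steps of neuron markers, and Sox11 had medians of 23.2, 32.7, 37.3, 55.1 and 89.3 TPM. Both were past 2-fold higher between the states: Sox4 averaged 38.3 TPM in the neuron against 16.5 TPM in the progenitor state, and Sox11 averaged 85.4 against 42.6 TPM, with log2 folds of 1.21 and 1.004.

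**Figure D4:**
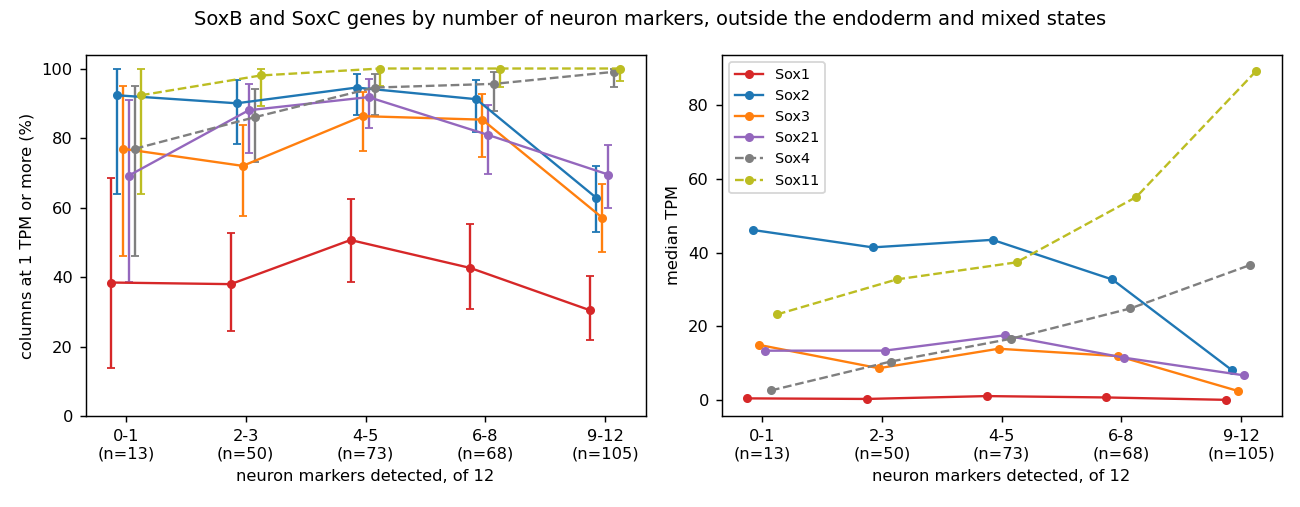
Detected share with exact 95% intervals (left) and median TPM (right) are plotted against the number of neuron markers detected, outside the endoderm and mixed states, for the SoxB genes (solid) and the SoxC genes Sox4 and Sox11 (dashed). The Sox2 median is 43.5 TPM with 4 to 5 markers and 8.02 TPM with 9 to 12, while the Sox11 median is 37.3 and 89.3 TPM in the same steps.

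Inside the progenitor state the members differed little with the first signs of neurogenesis. In the 56 columns with at least 2 of 6 neurogenic genes (Neurog1, Neurog2, Neurod1, Neurod4, Nhlh1 and Insm1, which drive or mark commitment to the neuronal fate), Sox2 averaged 43.9 TPM, against 49.1 TPM in the 76 columns with fewer. Sox21 averaged 17.7 against 18.6 TPM, Sox3 16.67 against 16.72 TPM and Sox1 2.52 against 3.24 TPM, in columns with at least 2 against fewer neurogenic genes. All 4 detected shares had overlapping intervals, among them 41.1% (28.1 to 55.02) against 50% (38.3 to 61.7) for Sox1. Over distinct cells Sox2 averaged 46.6 and 48.3 TPM in the same order.

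Between kinds of progenitor the mean level differed most for Sox2, a contrast singled out after the values were seen. In progenitor-state columns with Pax3 or Pax7 but no Dbx1, genes of dorsal progenitors, Sox2 averaged 63.05 TPM with a median of 55.3 TPM in 26 columns, which include the highest Sox2 value of all, 306.2 TPM. That 1 column raises the mean of its group. In the 69 columns with Dbx1, a gene of intermediate progenitors, Sox2 averaged 47.5 TPM with a median of 43.85 TPM. In the 37 with none of the 3 genes it averaged 34.4 TPM with a median of 27.01 TPM. Sox21 ran otherwise, with 20.4, 15.6 and 21.5 TPM in these groups. Median gene numbers were 7050.5, 6324 and 5745, and their part in the difference was not tested. Over distinct cells Sox2 averaged 64.3, 47.9 and 34.9 TPM.

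Most progenitor-state columns carried several SoxB genes at once. All 4 were detected in 38.6% of them (30.3 to 47.5), exactly 3 in 42.4%, and none in 2 columns. In the endoderm state no column had 3 or more, and 43 of 56 had none. In the neuron state 28.3% of columns (21.7 to 35.7) had all 4 and 11.6% (7.21 to 17.3) had none, and in the mixed state 19.4% (11.9 to 28.9) had all 4 and 13.98% (7.66 to 22.7) had none. Of the progenitor-state columns with exactly 3 members, 46 of 56 lacked Sox1, the member with the lowest level, as did 52 of 61 in the neuron state. Among the 30 neuron-state columns with a single SoxB gene that gene was Sox21 in 14, Sox2 in 8, Sox3 in 7 and Sox1 in 1. Over distinct cells all 4 were found in 38.3% of the progenitor state and in 25.1% of all cells, against 25.8% of all columns.

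**Figure D5:**
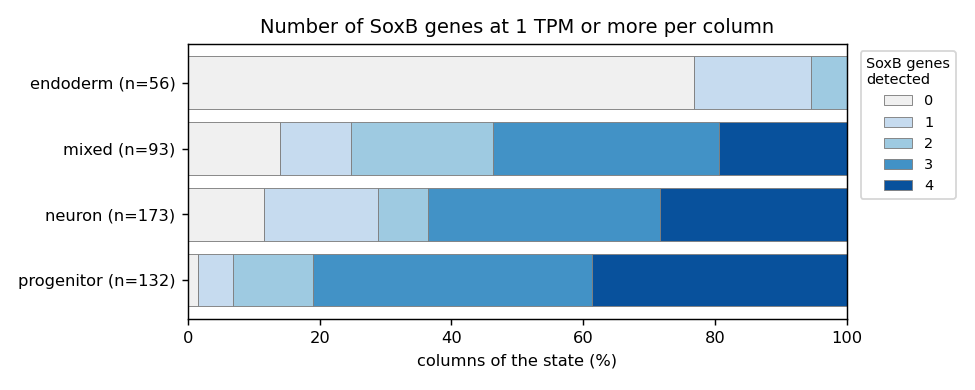
Bars give the percent of columns of each marker state with 0, 1, 2, 3 or 4 SoxB genes at 1 TPM or more. The endoderm state has 76.8% of its columns with none, and the progenitor state has 42.4% with 3 and 38.6% with all 4.

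Pairs of members were detected together more often than the product of their shares over all columns. For Sox2 and Sox3 the number of columns with both was 1.29 times that given by the product of their shares. The 6 pairs had ratios of 1.24 to 1.39 over all columns and of 1.02 to 1.10 in the progenitor state. Such a ratio cannot pass 1 divided by the larger share, which for Sox2 and Sox3 is 1.38 over all columns and 1.06 in the progenitor state, so the values of the states cannot be compared. The same limit holds across gene number: the ratio for Sox2 and Sox3 was 1.54 in columns with at most 6137 genes, 1.31 in those between 6137 and 7290, and 1.07 in those above, where the highest possible values were 1.87, 1.39 and 1.09. Detection of Sox2 was 53.6%, 71.7% and 91.5% over the same steps. Within the progenitor state its mean was 46.1, 47.5 and 47.1 TPM over like steps of gene number, bounded at 5727 and 6787 genes, while its detection was 84.1%, 97.7% and 100%. Over distinct cells the Sox2 and Sox3 ratio was 1.29 over all states.

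Only 8 progenitor-state columns lacked Sox2. All 8 had Pax6, 5 had Sox3, 5 had Sox21 and 1 had Sox1. Of these columns 7 had at most 5727 genes, and the median of all 8 was 4634.5 genes.

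Other Sox genes separated the states as well. Of 15 other Sox genes, 9 could be compared between the endoderm and progenitor states, of which 2 were past 2-fold higher and 6 lower, where 18.1% of all genes compared were higher and 26.7% lower. The median log2 fold of these Sox genes was -2.26, beside -0.26 for all genes. The 2 higher genes, Sox17 and Sox7 of the SoxF group, which specify endoderm, were part of the endoderm list and so were high by construction. Sox17 averaged 169.7 TPM in the endoderm against 0.12 TPM in the progenitor state, and Sox7 averaged 30.3 against 0.34 TPM. Sox11 averaged 0.83 TPM in the endoderm against 42.6 TPM in the progenitor state, and Sox9, a SoxE gene of neural stem cells, averaged 0.88 against 20.1 TPM. In the neuron state 7 of the 15 could be compared, of which 2, Sox4 and Sox11, were past 2-fold higher and 0 lower, beside 9.8% higher and 2.55% lower among all genes. In the mixed state 9 could be compared, with 2 higher, Sox17 and Sox7, and 1 lower, Sox13, where 13.1% of all genes were higher and 4.75% lower. The second SoxB2 gene, Sox14, known from spinal interneurons, was detected in 7 neuron-state columns (4.05%) and 2 of 93 mixed-state columns, at up to 42.3 TPM, and was listed at 0 in all endoderm-state and progenitor-state columns.

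Genes that act with or under SoxB proteins were mostly low in the endoderm state as well. Of 15 such genes, 13 could be compared there, of which 11 were past 2-fold lower and 2 higher, beside 26.7% lower and 18.1% higher among all genes, and their median log2 fold was -4.07. Gmnn, which encodes the replication inhibitor geminin and acts in neural fate acquisition, averaged 169.9 TPM in the endoderm against 365.8 TPM in the progenitor state. Chd7, which encodes a chromatin remodeller that binds Sox2, averaged 35.3 against 75.99 TPM, and Prom1, which encodes the stem cell surface protein CD133, averaged 5.92 against 61.03 TPM. The Notch effector gene Hes1 went the other way, at 100.5 TPM in the endoderm against 20.3 TPM in the progenitor state. The POU genes Pou3f2 and Pou3f4, whose proteins pair with SoxB factors on neural enhancers and which were singled out after their values were seen, averaged 0.12 and 0.04 TPM in the endoderm against 31.5 and 18.2 TPM in the progenitor state. Nes, whose neural enhancer is a known site of SoxB and POU binding, averaged 0.64 against 16.5 TPM and was singled out likewise.

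Few of these genes were past 2-fold in the neuron state, as held for all genes. Of 14 genes compared, 1 was past 2-fold higher and 0 lower, beside 9.8% higher and 2.55% lower among all genes. Their median log2 fold was -0.33, beside 0.04 for all genes. The higher gene was Pou3f1, another POU factor, at 2.14 TPM in the neuron against 0.24 TPM in the progenitor state. Pou3f2 averaged 30.8 TPM in the neuron and 31.5 TPM in the progenitor state. In the mixed state 13 were compared, with Hes1 higher and Prom1 and Msi1, which encodes a progenitor RNA-binding protein, lower. Among all genes 13.1% were higher and 4.75% lower there.

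Markers of other cell types were also followed. Among all genes compared, 26.7% were past 2-fold lower and 18.1% higher in the endoderm state. These shares were 4.75% and 13.1% in the mixed state, and 2.55% and 9.8% in the neuron state. Of 6 pluripotency genes 2 could be compared, and both were past 2-fold higher in the endoderm state: Dppa5a averaged 733.3 TPM in the endoderm against 68.3 TPM in the progenitor state, and Zfp42 averaged 36.4 against 0.59 TPM. Sox2, the pluripotency factor among the members, was low where these 2 were high, but the rest of the list did not follow them. Pou5f1, which encodes Oct4, averaged 0.51 TPM in the endoderm and 0.08 TPM in the progenitor state and did not pass the filter. Nanog, at 0 against 0.90 TPM, and Esrrb, at 0 against 0.02 TPM, ran the other way and did not pass it either. Tdgf1 was at 0 in both states. Of 6 neural crest genes, 0 could be compared in the endoderm and mixed comparisons, and in the neuron comparison 2 could be, Foxd3 and Tfap2b, both past 2-fold higher. Of 6 mesenchyme genes 2 could be compared in the endoderm state, where Pdgfra, also a gene of primitive endoderm, was higher and Prrx2 lower. In the mixed state 2 could be compared, with Pdgfra higher, and in the neuron state 1, which was not past 2-fold. Of the 6 neurogenic genes all 6 were lower in the endoderm state, 1 was higher and 1 lower in the mixed state, and 3, Neurod1, Insm1 and Nhlh1, were higher in the neuron state.

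The genes whose levels ranked most like each member over the kept columns were sought among 11130 others detected in at least 10% of columns. These Spearman correlations are descriptions, and the columns share states, repeats and gene number, with which the members themselves correlated at 0.21 to 0.27. For Sox2 the 5 most alike were Fkbp3 (0.63), Ednrb (0.62), Fabp7 (0.60), Dek (0.60) and Fam181a (0.60). Fabp7, a fatty acid binding protein gene of radial glia, was itself part of the progenitor list. For Sox3 they were Vim (0.61), which encodes the intermediate filament vimentin, Slc25a5 (0.58), the Notch effector gene Hes5 (0.58), Fam181a (0.58) and Fam181b (0.57). For Sox21 they were Slc25a5 (0.57), Dtx4 (0.54), Fabp7 (0.53), Ran (0.53) and H2afz (0.53). For Sox1 they were Fam181a (0.45), Akr1b3 (0.44), Sox2 (0.44), Tuba1b (0.42) and Ybx1 (0.42). Fam181a was thus among the 5 for Sox1, Sox2 and Sox3.

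At the other end, the lowest correlations were those of Map1lc3b (-0.55), Atp6v0b (-0.54) and Carhsp1 (-0.52) for Sox2, Atp6v0b (-0.53), Map1lc3b (-0.50) and Rnasek (-0.50) for Sox3, Ctsl (-0.43), Cd63 (-0.42) and Atp6v1e1 (-0.41) for Sox21, and Cd63 (-0.37), Atp6v0c (-0.37) and Map1lc3b (-0.35) for Sox1. Map1lc3b encodes the autophagy protein LC3, the Atp6v genes encode subunits of the proton pump that acidifies lysosomes, and Carhsp1 encodes an RNA-binding protein. Among the members, Sox2 and Sox3 correlated most, at 0.54, and Sox1 and Sox21 least, at 0.34. Outside the endoderm and mixed states these 2 values were 0.41 and 0.27, and Sox1 and Sox3 were the least alike, at 0.25. Over distinct cells of all states Sox1 and Sox3 were also least alike, at 0.34 beside 0.35 for Sox1 and Sox21. Outside the endoderm and mixed states Fam181a correlated with Sox2 at 0.49 and Map1lc3b at -0.45.

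The 2 column sets differed in some values. In the progenitor state Sox1 was detected in 54.7% (42.7 to 66.2) of set 1 and 35.1% (22.9 to 48.9) of set 2, and Sox3 in 88% (78.4 to 94.4) and 73.7% (60.3 to 84.5), with median gene numbers of 6428 and 6014. Sox2 averaged 49.2 TPM and 43.8 TPM there, and Sox21 averaged 17.4 TPM and 19.3 TPM. Within sets 1 and 2 the endoderm over progenitor log2 fold of Sox2 was -7.25 and -5.16, since the endoderm column with 27.8 TPM lay in set 2. That of Sox3 was -4.51 and -6.61, of Sox21 -4.59 and -3.94, and of Sox1 -7.10 and -8.01. All 8 values were past 2-fold.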

How the data were processed

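The authors deposited 1 table of gene values per cell, whose unit is not stated. Per the submitters' processing notes, STAR and RSEM were used with build mm10, and the sources used here give no version, annotation or filter. The values were taken to be TPM, made by the authors, since they are decimals that sum per column to 54.2% to 95.1% of a full TPM total. TPM is not a count and keeps no depth. The header line runs on into the first gene's row and was split there. Column names match no sample title, which has no effect because all samples share 1 label.

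From the deposited columns 6 were removed (2 with under 2000 genes above 0, 5 with over 20% mitochondrial share, 1 of them with both). Near copies were columns with a correlation over 0.93 of log2(TPM + 1) across 13756 genes detected in at least 10 columns, and distinct cells leave out the set 2 column of each pair. Doublets were not called, because callers need counts. Folds are of mean TPM, called past 2-fold with no test. The fold calculation was run on simulated data with changes far larger than 2-fold only, which cannot show how it performs near that bound. From the lists of genes past 2-fold, the 4 with the highest mean TPM were named for each comparison, and for each member the 5 most and 3 least alike genes. The members, lists and bounds were chosen with earlier results of these data known. Promoters are from RefSeq, GRCm38.p6, and held 3 of the 4 members. Python 3.11.15, numpy 2.4.6, scipy 1.17.1, pandas 2.3.3 and matplotlib 3.10.9 were used.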

Additional observations from a re-analysis of the deposited data

How the results depend on the processing

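All 12 log2 folds between states kept their negative sign under each alternative run. Folds near 2-fold crossed it. Sox3 in the neuron over progenitor state passed it at -1.02 over distinct cells, -1.07 in column set 2, -1.13 with 1 more marker per list and -1.15 with markers at 5 TPM. Sox2 in that comparison passed it at -1.04 with 1 more marker, -1.11 with markers at 5 TPM and -1.54 as mean log2(TPM + 1). Sox21 in the mixed over progenitor state passed it at -1.11 in column set 2, -1.15 without the 5% of columns with the most genes, -1.34 with 5000 to 8000 genes and -1.29 as mean log2(TPM + 1), and Sox1 passed it at -1.05 with 1 more marker. With the neuron state at 10 markers, chosen after the data were seen, Sox3 in the mixed state was at -0.99, short of it, and in the neuron state Sox2 was at -1.45 and Sox3 at -1.55. The progenitor state used as reference there also took in columns with 6 to 9 neuron markers. The cause of these shifts was not tested.

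Detected shares moved with the threshold. For any value above 0 they were 46.5% for Sox1 and 74.7% for Sox21, with all 4 members in 35.6% and none in 11.4% of columns. At 5 TPM or more Sox1 was in 17.03%, Sox2 in 65.7%, Sox3 in 50% and Sox21 in 56.6%, with all 4 in 8.95% and none in 23.6%. Among the 4000 highest genes of a column Sox1 was in 1.09%, Sox2 in 47.8%, Sox3 in 14.4% and Sox21 in 22.9%, with all 4 in 0.218% and none in 42.6%. In column set 1 Sox1 was in 37.9%, Sox3 in 66.5% and all 4 in 31.25%, and in set 2 Sox1 was in 28.6% and all 4 in 20.5%. Of the 5 genes most alike to each member, 2 or 3 were among the 5 in either column set, by Pearson correlation or outside the endoderm and mixed states. The rescaling left out 2 columns. No paired analysis was possible because there is 1 group and no test.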

Other observations

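The 4 unassigned columns had a median of 19.6 TPM of Sox2, with 2 of 4 detected and a highest value of 128.7 TPM, while Sox1 was at 0 in all 4. Among the 6 removed columns Sox2 was detected in 2, at up to 68.9 TPM, Sox21 in 2, at up to 58.4 TPM, Sox1 in 1, at 65.6 TPM, which is above its highest value in any kept column, and Sox3 in 0.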
